A study of Drosophila melanogaster with 28 samples.

Results

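The genes trx, trr, Set1, ash1, ash2, Kdm5, Utx and brm encode histone methyltransferases, a shared COMPASS subunit, histone demethylases and the ATPase of a chromatin remodelling complex, all on the trithorax side. They were picked by name, and they make up 8 of the 13968 protein-coding genes on the 7 chromosomes examined. All 8 passed the minimum mean of 10 fragments over the libraries of each mark, at promoters and over gene bodies, although single H3K27me3 promoter windows held fewer. The data show how their own promoters and bodies were marked in chromatin from Drosophila testis tumours.

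Trithorax-group proteins keep genes active, in opposition to the Polycomb group, and are best known for maintaining Hox gene expression in flies. COMPASS complexes built on Set1, trx or trr methylate lysine 4 of histone H3, and Utx, a partner of the trr complex, removes methyl groups from lysine 27, the residue that Polycomb methylates. In the testis niche, germline stem cells and the somatic cyst stem cells beside them both attach to hub cells, which secrete Unpaired (Upd), a ligand of the JAK-STAT pathway. Overexpressed Upd makes stem-cell-like cells accumulate into tumours.

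Germline tumours carried P{w[+mC]=GAL4::VP16-nanos.UTR} over UAS-Upd, in a y[1] w[1118] P{hs70FLP} background, and their chromatin is labelled GSC-like. Cyst tumours carried traffic jam-GAL4 over UAS-Upd in a w[1118] background, and theirs is labelled CySC-like. Both tumour types held 1 copy of UAS-FRT-H3-GFP-FRT-H3-mKO, so the driver that makes the tumour also sets which cells carry the GFP-tagged H3. Flies were kept at 25 °C, and each preparation pooled about 18 to 20 testis pairs. Chromatin of the GFP-tagged cells was cut by micrococcal nuclease tethered through an anti-GFP antibody, and after a small part was kept as input, the remainder went through immunoprecipitation (IP) for H3K4me3, H3K27me3 or H3K9me3. There were 7 germline and 7 cyst preparations, with 2 of each type for H3K4me3 and for H3K9me3 and 3 for H3K27me3, or 28 libraries in all. What makes replicates separate beyond their own dissection is not given in the labels, so p-values measure the spread between these preparations. In pooled cells, a lower signal from fewer marked cells and one from less mark per cell cannot be told apart.

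Depth ranged from 942943 fragments (H3K27me3 IP of germline replicate 1) to 18199704 per library. For H3K4me3 the tumour types were on different flow cells, so a difference between runs and one between tumours cannot be told apart for that mark. The labelled cell types could not be told from H3K4me3 at their marker promoters. Of 6 germline markers, zpg was called higher than input and vas lower in germline tumours, and the same pair was called in cyst tumours. Of 5 cyst markers, zfh1 was called in germline tumours and 0 were called in cyst tumours. None of these 11 markers was called for the difference between tumour types by limma.

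The genes lie on 4 chromosome arms in Release 6 of the genome (dm6). Set1 is on 3L at 25107594 to 25115180 (plus strand), toward the centromeric end of an arm of 28110227 bp. The other 3L genes are ash1, at 19590773 to 19598755 (minus strand), and brm, at 15970082 to 15982869 (minus strand). On 3R are trx, at 14263358 to 14286903 (minus strand), and ash2, at 24650125 to 24653376 (plus strand). On 2L are Kdm5, at 5989400 to 5999501 (minus strand), and Utx, at 10272325 to 10278811 (minus strand). The X-linked gene is trr, at 1881313 to 1889950 (minus strand).

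Promoters of 7 genes are shown because they span the H3K4me3 results given next. Those of Kdm5, ash1 and ash2 were above input in both tumour types, that of brm was called in cyst tumours and not in germline tumours, that of Set1 was below it, and those of trx and Utx were not called. Each sequence is the reference genome's, read 5′ to 3′ on the strand of the gene from 150 bases before the annotated start (for ash2 82, up to the start of puf) to 20 bases from it. Capitals mark a DRE core, a Motif 1 core, a TATA box, a GAGA match or an E-box on either strand, with the letters given after the sequences.
Kdm5 (chr2L:5999482-5999651, minus strand): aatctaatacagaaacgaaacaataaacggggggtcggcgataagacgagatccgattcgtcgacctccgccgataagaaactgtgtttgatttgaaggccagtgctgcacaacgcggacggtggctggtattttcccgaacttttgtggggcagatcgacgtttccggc
brm (chr3L:15982850-15983019, minus strand): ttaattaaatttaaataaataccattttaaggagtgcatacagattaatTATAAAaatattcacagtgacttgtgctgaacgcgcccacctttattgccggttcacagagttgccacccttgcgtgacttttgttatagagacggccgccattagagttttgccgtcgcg
ash1 (chr3L:19598736-19598905, minus strand): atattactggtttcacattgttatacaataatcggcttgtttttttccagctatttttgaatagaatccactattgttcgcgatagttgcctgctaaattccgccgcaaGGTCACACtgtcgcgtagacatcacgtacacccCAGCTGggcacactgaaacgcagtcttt
ash2 (chr3R:24650043-24650144, plus strand): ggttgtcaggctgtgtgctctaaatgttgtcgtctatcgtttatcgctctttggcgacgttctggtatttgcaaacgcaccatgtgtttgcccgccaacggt
trx (chr3R:14286884-14287053, minus strand): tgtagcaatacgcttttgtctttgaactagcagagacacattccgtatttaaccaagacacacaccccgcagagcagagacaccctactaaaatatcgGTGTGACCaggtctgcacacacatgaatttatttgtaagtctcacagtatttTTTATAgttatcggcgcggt
Set1 (chr3L:25107444-25107613, plus strand): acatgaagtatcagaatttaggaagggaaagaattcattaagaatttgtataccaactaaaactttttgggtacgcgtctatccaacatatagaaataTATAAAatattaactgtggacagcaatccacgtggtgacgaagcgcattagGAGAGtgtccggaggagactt
Utx (chr2L:10278792-10278961, minus strand): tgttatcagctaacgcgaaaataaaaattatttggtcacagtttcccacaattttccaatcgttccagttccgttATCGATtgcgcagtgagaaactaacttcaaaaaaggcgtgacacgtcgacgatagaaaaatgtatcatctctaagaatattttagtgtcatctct
The Motif 1 core (GGTCACAC), which 5.56% of the 13968 promoters hold in this window, was found in ash1 with its first base at -41 and in trx at -52, counting the start as 0. The DRE core (ATCGAT), held by 18.7% of promoters, was found in Utx at -75. The TATA box (TATAAA), held by 30.3%, was found in Set1 at -52, in brm at -101 and in trx at 0. The GAGA string (GAGAG), held by 19.8%, was found at -1 in Set1. The E-box (CAGCTG), held by 11.9%, was found in ash1 at -8. An Initiator core (TCAGT, not capitalised, 38.0% of promoters) was found in ash1 at 3. The promoters of trr and Kdm5 held none of these strings. Nor did that of ash2, where only 82 bases before the start were searched, against 150 for the shares. No 2 of the motif matches in these genes overlapped, and a match is a string of letters and not a site shown to be bound.

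H3K4me3, the mark of active start sites, was taken in windows reaching 500 bp to either side of the annotated start. A gene was called when IP and input differed with an adjusted p under 0.05 and by more than 1.5-fold. As a scale, 1 of 4 active genes (RpL32, alphaTub84B, eEF1alpha1 and Act5C) was called higher in each tumour type. Of 5 Polycomb-repressed genes (Ubx, Abd-B, Antp, en and eve), 2 were called higher in germline and 3 in cyst tumours. The medians were -0.13 and 0.08 for active genes, against 0.25 and 0.59, so calls did not separate active from repressed promoters. In germline tumours 4 of the 8 promoters (Kdm5, trr, ash2 and ash1) were higher than input, against 20.8% of the 13686 tested, and Set1 was lower, against 4.52%. In cyst tumours 5 (brm, ash2, ash1, trr and Kdm5) were higher, against 27.7% of promoters, and Set1 was again lower, against 3.58%. The median log2 difference over the 8 genes was 0.61 in germline and 1.14 in cyst tumours, against 0.21 and 0.26 over all promoters. Per-preparation values below are log2 of IP over input signal with 1 fragment added to each count, and each promoter value rests on 22 to 222 IP fragments. For no mark was it counted how many of all genes have tumour types that do not overlap. A lack of overlap between so few preparations is therefore given as a description only.

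Among the H3K4 methyltransferase genes, trx, whose product keeps Hox genes active, had -0.19 and -0.13 in the germline preparations, against 0.60 and -0.18 in the cyst preparations. At trr, whose product monomethylates H3K4 at enhancers, H3K4me3 was 1.33 and 0.59 in germline, against 1.74 and 0.66 in cyst preparations. At Set1, which encodes the main enzyme of H3K4 di- and trimethylation in the fly, it was -0.85 and -0.71 in germline, against -0.74 and -1.12 in cyst preparations. The 4 trr values were above 0 and the 4 Set1 values below it, and at all 3 genes the tumour types overlapped. By limma, Set1 was below input by -0.77 ± 0.21 in germline (SE, adjusted p = 0.0078) and by -0.86 ± 0.21 in cyst tumours (SE, adjusted p = 0.00211). At trx limma gave -0.19 in germline (adjusted p = 0.529) and 0.20 in cyst tumours (adjusted p = 0.471). Only 2.39% of promoters in germline and 0.855% in cyst tumours had a lower mean than Set1. That Set1 window lies at a start with 1 annotated transcript, and the further Set1 starts are given below.

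Next came ash1 and ash2, which encode an H3K36 methyltransferase and a subunit shared by all COMPASS complexes. At ash1 the mark was 0.53 and 1.09 in germline, against 1.33 and 1.26 in cyst preparations. At ash2 it was 0.41 and 1.24 in germline, against 1.72 and 1.16 in cyst preparations. The ash1 values did not overlap between tumour types, and those of ash2 did. In limma ash1 was higher than input by 0.75 ± 0.21 in germline and 1.26 ± 0.21 in cyst tumours (SE, adjusted p = 0.0108 and 9.8e-05). For ash2 the values were 0.75 ± 0.23 in germline and 1.40 ± 0.23 in cyst tumours (SE, adjusted p = 0.0173 and 8.1e-05).

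Kdm5 encodes the demethylase that removes H3K4me3. Its promoter had 1.62 and 0.99 in germline, against 1.16 and 1.21 in cyst preparations, so that the tumour types overlapped. In limma it was higher than input by 1.18 ± 0.21 in germline (SE, adjusted p = 0.000348) and 1.14 ± 0.21 in cyst tumours (SE, adjusted p = 0.000229), and 97.9% of promoters had a lower germline mean. At Utx, the H3K27 demethylase gene, the mark was 0.54 and 0.49 in germline, against 0.85 and 0.34 in cyst preparations. Utx was not called, with an adjusted p of 0.102 in germline and of 0.0377 at less than 1.5-fold in cyst tumours. The values at brm, the ATPase gene of the SWI/SNF-type remodelling complexes, were 0.52 and 0.48 in germline, against 1.88 and 1.25 in cyst preparations. Both cyst values of brm were above both germline values. In limma brm was higher than input by 1.49 ± 0.21 in cyst tumours (SE, adjusted p = 1.6e-05), and it was not called in germline tumours at 0.43 ± 0.21 (SE, adjusted p = 0.119).

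**Figure D1:**
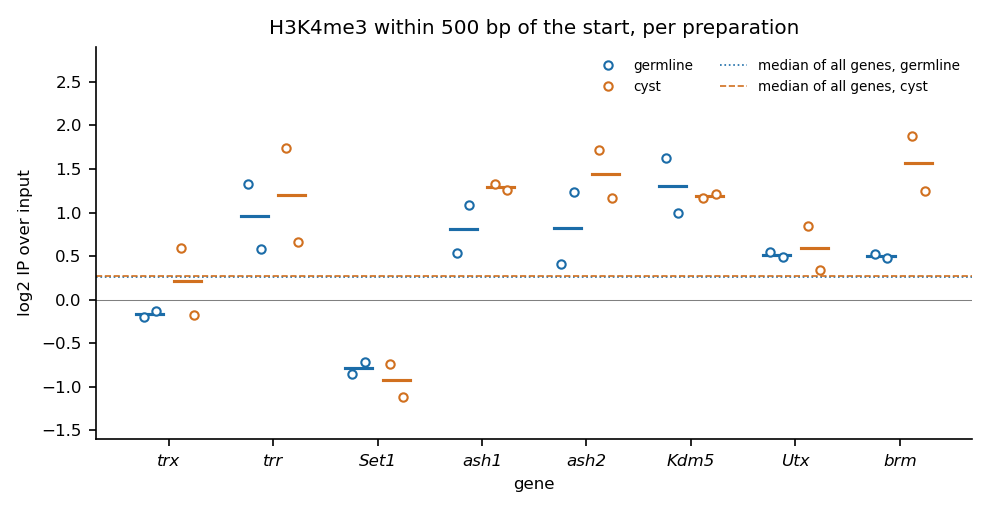
H3K4me3 log2 IP over input within 500 bp of the start of each gene, with germline preparations left of cyst preparations, 1 point per preparation and a bar at the mean of 2. Dotted (germline) and dashed (cyst) lines are the medians of all 13686 promoters; Set1 lies below 0 in all 4 preparations, and brm is higher in both cyst than in both germline preparations.

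Calls in germline tumours depended on single preparations: 1 gene was called without germline replicate 1 and 2 without germline replicate 2, where 5 were called with both. Over all promoters the calls also fell, to 607 higher and 108 lower without germline replicate 1 and to 842 and 300 without germline replicate 2, against 2843 and 618 with both. In cyst tumours trr was not called without cyst replicate 1, nor Set1 without cyst replicate 2. Scaling the libraries by TMM, which moves the median of all promoters from 0.21 to -0.01 in germline and from 0.26 to -0.00 in cyst tumours, left trr, Kdm5 and Set1 called in germline and the same 6 genes in cyst tumours. Over all promoters that scaling turned 2843 higher and 618 lower calls in germline into 1373 and 1443, and 3787 and 490 in cyst into 1968 and 1475.

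The difference between tumour types was tested directly, and no promoter passed for H3K4me3 (0% of 13686 in limma; 1343 had an unadjusted p under 0.05, edgeR called 2 higher and 2 lower in germline, and DESeq2 0). With the replicate block limma called 2 higher and 12 lower, and without germline replicate 2 it called 11 lower, none of them among the 8. The largest of the 8 differences was at brm, at -1.05 ± 0.29 germline minus cyst (SE, unadjusted p = 0.00115, adjusted p = 0.291). Its H3K4me3 IP signal, scaled to an autosomal median of 1, was 1.185 and 1.19 in germline, against 2.63 and 2.59 in cyst preparations. Its input was 0.839 and 0.874 in germline, against 0.699 and 1.07 in cyst preparations, so the IP signals were apart and the inputs overlapped. Leaving out each preparation in turn kept the brm difference between -1.34 and -0.77. The other 7 differences ran from -0.64 at ash2 to 0.10 at Set1, with a median of -0.34 over the 8 genes against -0.07 over all promoters.

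Divergent neighbours start within 1000 bp of 5 of the genes, and 4 of these starts fall inside the promoter window. The same 5 genes were those called higher for H3K4me3 in cyst tumours. The share of all genes with such a neighbour was not counted, and what the neighbours add to the signal was not tested. The start of mRpL16, a mitochondrial ribosomal protein gene, lies 306 bp from that of trr, and the start of Taf6, which encodes a TFIID subunit, lies 333 bp from that of ash1. The puf gene, which encodes a ubiquitin protease, starts 82 bp from ash2, Arl1 266 bp from brm and Tsp26A 727 bp from Kdm5, the last outside the window. Within 500 bp downstream of the start alone, on the side of the gene itself, 6 of the 8 genes were called higher than input in each tumour type, against 37.2% of 13505 genes in germline and 40.7% in cyst tumours. Set1 was called lower there in cyst tumours, at -0.81 (adjusted p = 0.0188), against 2.24% of genes. The higher ones were trr, ash1, ash2, Kdm5, Utx and brm, with limma log2 values from 0.97 at Utx to 1.68 at trr in germline tumours. In cyst tumours they ran from 0.84 at Utx to 1.99 at trr. These windows can hold few fragments. At trr the 7 input libraries of each tumour type held 3 to 33 fragments in germline and 3 to 39 in cyst tumours. Its per-preparation H3K4me3 values there were 2.73 and 1.34 in germline, against 2.17 and 1.99 in cyst preparations.

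In the first 500 bp of brm H3K4me3 was 1.33 and 1.01 in germline, against 2.20 and 1.78 in cyst preparations, again without overlap, but the limma difference of -0.90 had an adjusted p of 0.668. In 100-bp bins, H3K4me3 dipped just upstream of the start and was high on both sides at ash1, brm and trr. At ash1 the bin centred at -150 averaged -1.91 in germline and -2.54 in cyst tumours, whereas the bin at 150 averaged 1.97 in germline and 2.20 in cyst tumours. At brm the same 2 bins averaged -1.01 and 0.68 in germline, against -0.69 and 1.51 in cyst tumours. At Utx the highest bin was at 350 in germline (1.72) and at 150 in cyst tumours (1.59). It was upstream, on the neighbour's side, at ash1 (-450 in germline and -650 in cyst tumours), at ash2 (-750 and -350) and at Kdm5 (-1050 in each). At trx, trr, Set1 and brm the highest bin was downstream in each tumour type. Single bins hold few fragments, and the bins are given as a description without a test.

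**Figure D2:**
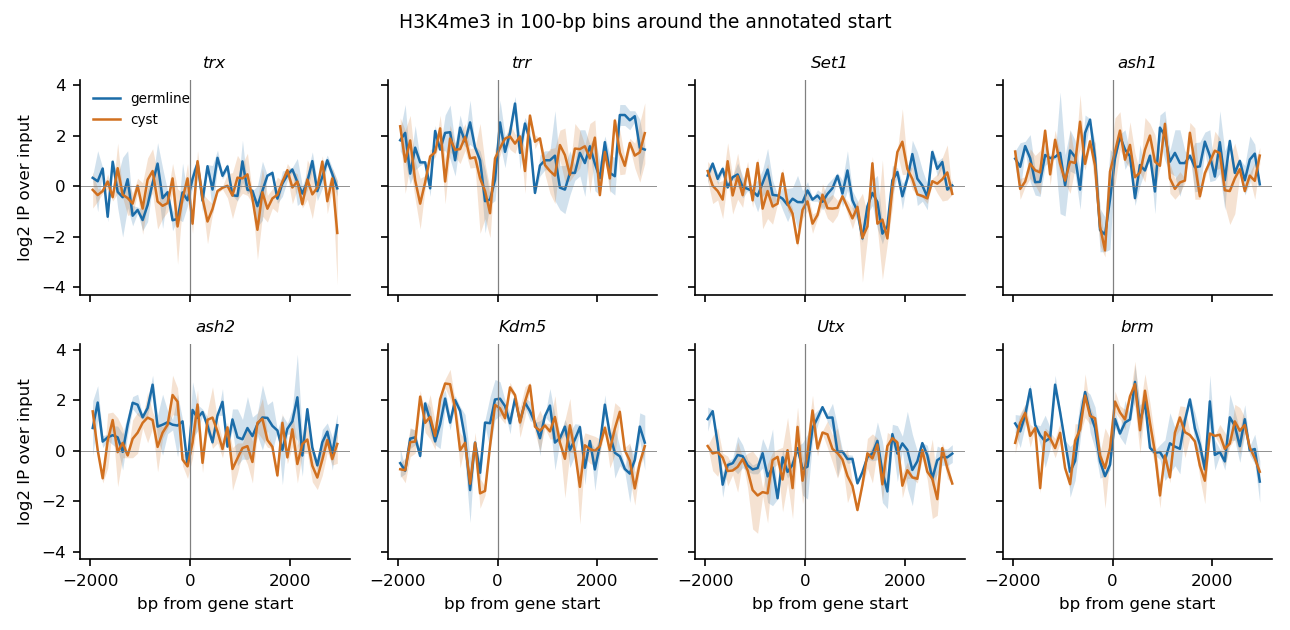
H3K4me3 log2 IP over input in 100-bp bins from 2000 bp before to 3000 bp after the annotated start of each gene, in the direction of transcription, with germline tumours in blue and cyst tumours in orange. Lines are means of 2 preparations and shading spans them; ash1 dips at -150 between high flanks in both tumour types, and Set1 averages below 0 in the first 500 bp of the gene in each tumour type.

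Several of the genes have further annotated starts. Set1 has 1 transcript from its upstream start, 6 from a site 1403 bp downstream and 2 from a site 1619 bp downstream. In the 500 bp after those 3 sites H3K4me3 averaged -0.61, -0.72 and -0.13 in germline tumours. In cyst tumours the same windows averaged -0.86 ± 0.27, 0.09 ± 1.26 and 0.72 ± 0.21 (SD, n = 2). The window after the third Set1 site was thus below 0 in germline and above 0 in cyst tumours, and no test was made of it. In 100-bp bins the highest H3K4me3 at Set1 was 1.36 at 2550 bp in germline tumours. In cyst tumours it was 1.76 at 1950 bp, from preparations at 0.46 and 3.07. Downstream Kdm5 starts, at 1737 and 2716 bp, averaged 0.21 and 0.62 in germline tumours, against 0.42 and 0.29 in cyst tumours. Those values were lower than at the upstream Kdm5 start, which averaged 1.72 in germline and 1.92 in cyst tumours. Starts of Utx at 1260 and 1650 bp averaged below 0 in each tumour type. Starts of ash2 at 1055 and 1292 bp averaged 0.81 and 0.85 in germline, against 0.75 and 0.78 in cyst tumours, with SDs from 0.77 to 1.21 (n = 2).

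The promoters differ in base composition, and GC content was checked by a correction. GC content of the 1-kb promoter windows was 30.6% at Set1 and 32.7% at Utx, lower than in all but 0.809% and 2.42% of genes. It was 51.9% at ash2 and 50.4% at trr, higher than in 96.9% and 94.3% of genes, against a median of 42.4%. Between them were trx (39.1%), ash1 (42.4%), Kdm5 (45.0%) and brm (46.7%). The promoters lowest in GC content, Set1, Utx and trx, also had the lowest limma values for H3K4me3 in cyst tumours (-0.86, 0.58 and 0.20). In germline tumours Set1 (-0.77) and trx (-0.19) were lowest, and brm (0.43) came below Utx (0.47). The highest values, at Kdm5 in germline (1.18) and at brm in cyst tumours (1.49), were not at the promoters highest in GC content. With each library's trend on GC content subtracted, Set1 was 0.12 in germline (adjusted p = 0.758) and -0.26 in cyst tumours (adjusted p = 0.357), so neither Set1 call held and its sign turned in germline tumours. Utx was called under that correction, at 1.17 in germline (adjusted p = 0.00101) and 1.04 in cyst tumours (adjusted p = 0.000512). The germline calls at trr and ash2 were lost, and those at Kdm5 and ash1 held. In cyst tumours the calls at trr, ash1, ash2, Kdm5 and brm held.

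**Figure D3:**
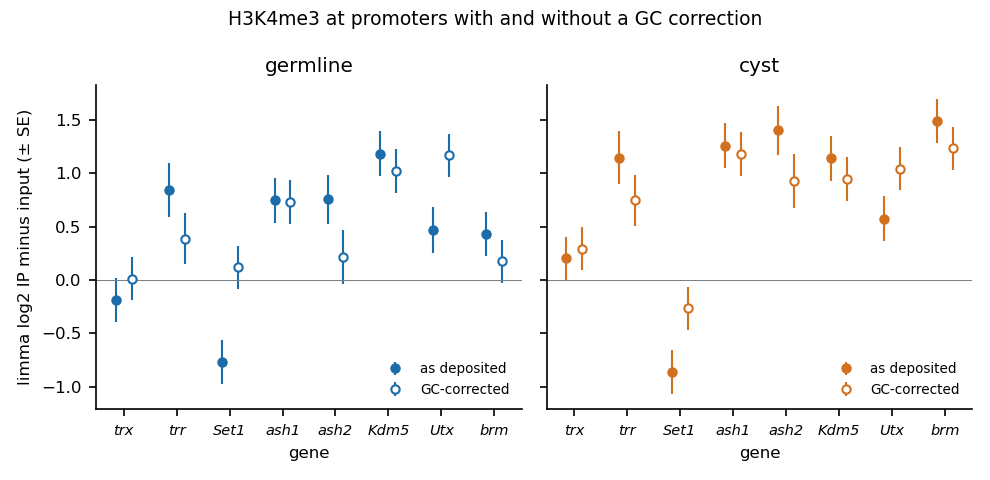
Limma log2 IP minus input for H3K4me3 at the 8 promoters in germline (left panel) and cyst (right panel) tumours, with SE bars; filled points are from the deposited signal and open points after subtracting each library's trend on GC content. Set1 and Utx, the promoters with the lowest GC content, move up by more than their SE.

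Over whole gene bodies H3K4me3 was called higher than input at trr in germline tumours (0.71 ± 0.13, SE, adjusted p = 0.00801), 1 of 8 genes against 20.3% of 13658. In cyst tumours trr (1.25 ± 0.13), Kdm5 (0.71 ± 0.13) and ash1 (0.62 ± 0.11) were called, 3 of 8 against 25.3%, with adjusted p from limma of 0.0015, 0.00626 and 0.00485. At trr the body values were 0.95 and 0.78 in germline, against 1.36 and 1.46 in cyst preparations, without overlap. The difference at trr of -0.54 had an adjusted p of 0.365. The brm body contains the nested genes CG17026, CG17027, CG17028 and CG17029, which cannot be separated from it here, and at brm the body values were 0.24 and 0.27 in germline, against 0.50 and 0.70 in cyst preparations. The body of trx, the longest at 23546 bp, had 0.09 and -0.00 in germline, against 0.21 and 0.12 in cyst preparations.

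H3K27me3, the mark that Polycomb deposits and Utx removes, was measured over gene bodies. It was called at 0 of the 5 Polycomb-repressed bodies in each tumour type, with medians of 0.31 in germline and 0.20 in cyst tumours. A missing call is therefore no sign that the mark is absent. None of the 8 genes was called in germline tumours, where limma called 0% of 13622 bodies, or in cyst tumours, where 0.0514% were called higher (7 bodies, with 0 lower, which became 228 and 36 with TMM scaling and 0 with the replicate block). Unadjusted p was under 0.05 for 1518 bodies in germline and 1252 in cyst tumours, and edgeR called 0 in germline and 463 higher and 198 lower in cyst tumours, and DESeq2 2 higher and 31 lower in germline and 333 higher and 188 lower in cyst tumours. The highest body values were at trr, with 1.00, 0.45 and 0.41 in the germline preparations, against 1.00, 1.29 and 1.34 in the cyst preparations. In cyst tumours 99.2% of genes had a lower mean. The limma value of trr in cyst tumours, 1.05 ± 0.26 (SE), had an adjusted p of 0.113. It passed in edgeR (adjusted p = 0.00294), in DESeq2 (3.5e-05), with TMM scaling (0.0345) and without germline replicate 1 (0.00551), the shallowest IP. In that last fit 988 bodies were called higher and 158 lower, against 7 and 0 with all preparations. Over the alternatives for trr the adjusted p ran up to 0.683, in the promoter window, where its value was -0.29. The trr body has a GC content of 54.0%, above 96.0% of genes, and after the GC correction the cyst value was 0.61 (adjusted p = 0.156).

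The lowest germline means for H3K27me3 over gene bodies were at Utx and Set1, whose bodies have GC contents of 38.0% and 35.9%, against a median of 45.7%. GC content as a cause was not tested. In cyst tumours the Set1 mean was 0.42, against a median of 0.09 over all bodies. At Utx the values were -1.22, -0.91 and -0.27 in germline, against -0.73, -0.40 and -0.40 in cyst preparations. At Set1 they were -1.12, -0.40 and -0.51 in germline, against -0.39, 0.39 and 1.27 in cyst preparations. All Utx values were below 0 and overlapped between tumour types, while every cyst value of Set1 was above every germline value, by a narrow gap. The nearest Set1 values were -0.39 in cyst replicate 1 and -0.40 in germline replicate 2. The Set1 body inputs of those preparations were the highest of their tumour type. The Set1 difference of -1.03 ± 0.50 (SE) did not pass (adjusted p = 0.997), and neither did any other body (0% of 13622 called in limma, 427 with an unadjusted p under 0.05, and 0 in edgeR and DESeq2). Without germline replicate 3, within 1 flow cell, the Set1 difference was -1.11.

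**Figure D4:**
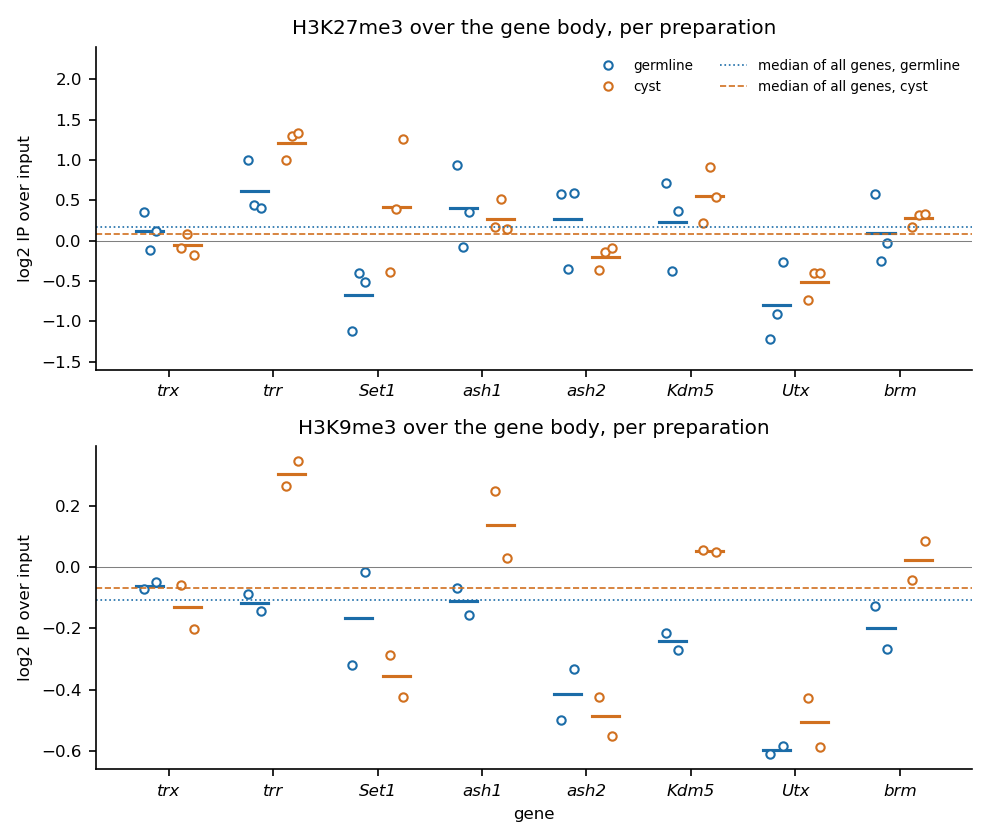
Log2 IP over input for H3K27me3 (top) and H3K9me3 (bottom) over each gene body, germline preparations left of cyst preparations, with 1 point per preparation, a bar at the mean, and lines at the medians of all genes. The 2 panels have different vertical scales; trr has the highest cyst mean for each mark.

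In H3K27me3 promoter windows Set1 also had the lowest values of the 8 genes in germline tumours, -2.58, -2.27 and -1.50, against -1.14, -1.10 and -0.81 in cyst preparations. The first of these rests on 0 IP fragments against 41 in the input, which by the limit of 3 fragments makes the IP at least 1.95-fold lower than input. No promoter was called lower than input in germline tumours (0% of 13665; 2337 had an unadjusted p under 0.05), and 0.834% were in cyst tumours, none of them among the 8. Limma gave Set1 -2.23 ± 0.65 in germline tumours (SE, adjusted p = 0.227).

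H3K9me3, the mark of heterochromatin, was called at none of the 8 gene bodies, against 1.87% of 13705 lower than input in germline and 4.15% in cyst tumours. It was also called at 0 of 2 bodies of heterochromatic genes (lt and rl) in each tumour type, with medians of 0.10 in germline and -0.03 in cyst tumours. TMM scaling turned 9 higher and 256 lower calls in germline into 32 and 61, and 53 and 569 in cyst tumours into 106 and 368. With the replicate block, 0 bodies were called in germline tumours and 520 lower in cyst tumours. At trr the body values were -0.09 and -0.14 in germline, against 0.26 and 0.34 in cyst preparations. At Kdm5 they were -0.21 and -0.27 in germline, against 0.06 and 0.05 in cyst preparations. At brm they were -0.13 and -0.27 in germline, against -0.04 and 0.09 in cyst preparations. These genes and ash1 had higher values in both cyst than in both germline preparations, with limma differences from -0.36 at trr to -0.20 at brm. At trx, Set1, ash2 and Utx the tumour types overlapped, and the share of all bodies without overlap was not counted. None passed (0% of 13705 bodies in limma, 1616 with an unadjusted p under 0.05), although edgeR called 238 bodies higher and 94 lower in germline, trr among the lower ones at -0.40 (adjusted p = 0.0457), and DESeq2 48 and 8. Utx had -0.61 and -0.58 in germline, against -0.43 and -0.58 in cyst preparations, and Set1, the gene nearest to a centromere, had -0.32 and -0.01 in germline, against -0.29 and -0.42 in cyst preparations.

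In promoter windows H3K9me3 was lower than input at Utx, trx and trr in germline tumours, 3 of 8 against 6.62% of 13708. In cyst tumours it was lower at Kdm5, trx, Utx, ash2 and ash1, 5 of 8 against 26.6%. Lower calls in cyst tumours also took in 4 of 4 active and 2 of 2 heterochromatic promoters, and 0 of 5 Polycomb-repressed ones. Limma values were -0.79 ± 0.16 at Utx and -0.76 ± 0.18 at trx in germline tumours (SE, adjusted p = 0.00393 and 0.0101). In cyst tumours they were -0.98 ± 0.16 at Utx and -1.09 ± 0.18 at Kdm5 (SE, adjusted p = 5.7e-05 and 5.6e-05). TMM scaling moved the median of all promoters from -0.30 to 0.01 in cyst tumours and turned 44 higher and 3652 lower calls into 698 and 1083, and in germline 21 and 908 into 129 and 424. With it 3 of the 8 genes were called lower in cyst tumours and 2 in germline tumours. Without germline replicate 1 none of the 8 was called in germline tumours, and without cyst replicate 2 the count in cyst tumours was 3. Over all promoters the lower calls were then 16 of 13709 in germline tumours, against 908 with all preparations, and 1736 in cyst tumours, against 3652.

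The H3K9me3 promoter difference passed at Kdm5 alone of the 8, at 1.03 ± 0.25 germline minus cyst (SE, adjusted p = 0.0376), against 2.17% of promoters called higher. Its log2 values were -0.42 and 0.31 in germline, against -1.24 and -1.11 in cyst preparations, without overlap. The IP signal at Kdm5 was 0.650 and 0.929 in germline, against 0.535 and 0.724 in cyst preparations, which overlapped. Its input in the same preparations was 0.879 and 0.751 in germline, against 1.31 and 1.575 in cyst preparations, which did not. The Kdm5 call was lost with the replicate block (adjusted p = 0.057), the GC correction (0.0507) and TMM scaling (0.0726), and without germline replicate 2 (0.691), cyst replicate 1 (0.326) or cyst replicate 2 (0.375). Over all promoters the block left 82 higher calls of 298. It held at Kdm5 in edgeR (0.0333) and without germline replicate 1 (0.00289).

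Input, the chromatin released by the nuclease before IP, was compared between tumour types over all 7 preparations of each. At the Kdm5 promoter the lowest, median and highest input signals were 0.576, 0.768 and 1.16 in germline, against 1.04, 1.31 and 1.63 in cyst libraries. At ash2 they were 0.875, 1.41 and 1.69 in germline, against 1.35, 1.91 and 2.07 in cyst libraries. At trr they were 0.559, 0.735 and 1.16 in germline, against 0.771, 0.981 and 1.76 in cyst libraries. In each case the medians were apart and the ranges overlapped. By limma the input was lower in germline at these 3 promoters, by -0.64 ± 0.12 at Kdm5, -0.41 ± 0.14 at ash2 and -0.48 ± 0.16 at trr (SE, adjusted p = 0.00212, 0.0289 and 0.0277), 3 of 8 against 29.5% of 13701 called lower.

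Over gene bodies ash2 alone was lower, by -0.34 ± 0.08 (SE, adjusted p = 0.015), 1 of 8 against 20.2% of 13690, with 0.910, 1.09 and 1.27 in germline, against 1.23, 1.37 and 1.61 in cyst libraries. The median over all promoters was itself -0.21 and moved to 0.01 with TMM scaling, and that over bodies moved from -0.11 to -0.00. With that scaling Kdm5 was still lower, by -0.42 (adjusted p = 0.0202), as was ash2 over its body, by -0.23 (adjusted p = 0.0375), while the trr and ash2 promoters were not called. Over all promoters TMM scaling turned 124 higher and 4040 lower calls into 712 and 729, and over bodies 228 and 2771 into 819 and 894. On flow cells that held both tumour types the Kdm5 promoter difference was -0.54 (adjusted p = 0.11) and that of the ash2 body -0.28 (adjusted p = 0.202), so neither was called. In those flow cells 1 promoter was called higher and 10 lower over all genes, and 2 and 7 bodies. The promoter count of 3 was 1 without the input of H3K4me3 cyst replicate 2, of H3K9me3 germline replicate 2 or of H3K9me3 cyst replicate 2. The trr body, on the X, which males have in a single copy, had median inputs of 0.386 in germline and 0.472 in cyst libraries. The median X-linked gene had 0.508 in germline and 0.591 in cyst libraries, against 1.04 and 1.08 for genes on 2L, 3L and 3R.

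**Figure D5:**
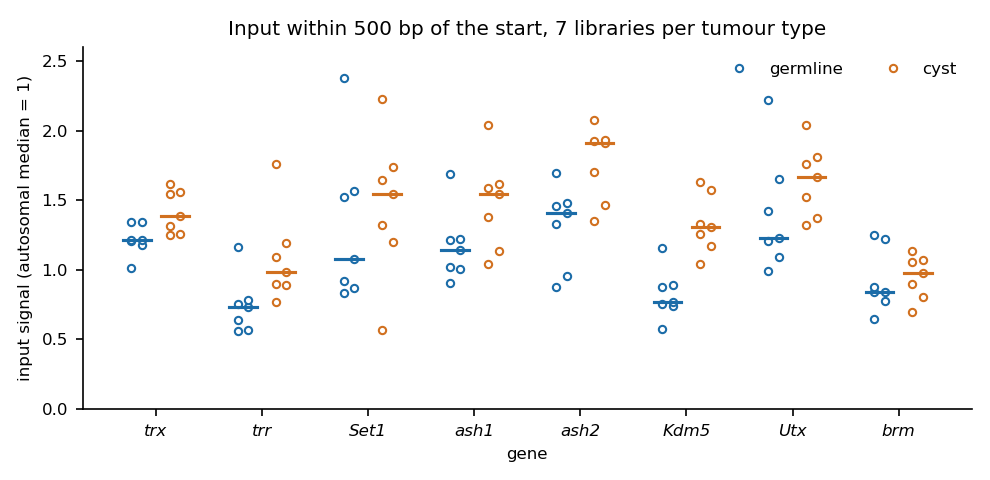
Input signal within 500 bp of the start of each gene, scaled to an autosomal median of 1, with 7 germline libraries left of 7 cyst libraries and bars at the medians. The Kdm5 promoter has medians of 0.768 in germline and 1.31 in cyst libraries, and ranges overlap at every gene.

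Another 32 genes of COMPASS and of the trithorax group were counted beside the 8. For H3K4me3 in germline tumours 13 of the 32 promoters were higher than input, against 20.8% of all promoters, and 0 lower, with a median of 0.47, led by mor (1.25) and Caf1-55 (1.23), then Ptip (1.02) and osa (0.96). In cyst tumours 19 were higher, against 27.7%, and 0 lower, with a median of 0.86, led by osa (1.31), Ptip (1.22), Caf1-55 (1.22) and Bap111 (1.18). The proteins of mor, osa and Bap111 are partners of brm in its remodelling complexes. None of the 32 was called for the difference between tumour types in H3K4me3, where the median was -0.19 and the range -1.16 to 0.54. For H3K27me3 over gene bodies 0 of 32 were called in either tumour type.

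H3K9me3 promoter windows of the 32 were lower than input at 7 in germline and 22 in cyst tumours, against 6.62% and 26.6% of all promoters, with the lowest value at fs(1)h in each (-1.34 in germline and -1.40 in cyst tumours). The H3K9me3 promoter difference passed at 1 of the 32, against 2.17% of all promoters called higher. It was nej, which encodes the acetyltransferase CBP, at 1.14 (limma, adjusted p = 0.0316). With the replicate block the 298 higher calls over all promoters became 82, and nej was not followed through the alternatives. Inputs were lower in germline at 16 of the 32 promoters, against 29.5% of all, and at 9 of the 32 bodies, against 20.2%. With TMM scaling the medians of all genes move as given above, so these directions are relative to the autosomal median of each library.

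Over 14 preparations, the gene nearest to each of the 8 was found among 13590 genes by the root mean square difference of log2 IP over input (H3K4me3 at the promoter, H3K27me3 and H3K9me3 over the body). It was CG5399 for trx (0.152), Pi4KIIIalpha for trr (0.158), Zcchc7 for ash1 (0.149) and PRL-1 for Utx (0.179). For brm it was CG31638 (0.191), for ash2 Socs16D (0.202) and for Kdm5 Syx18 (0.209). Set1 was the farthest from any other gene, at 0.346 from CG32148. This measure is a description of these preparations without a test.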

How the data were processed

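Libraries were aligned with Bowtie2 2.4.5 to dm6, per the submitters' processing notes. The deposited table gives, per library, a signal in 40-bp windows every 20 bp, in which the authors had divided fragment coverage by a library constant. It holds steps of whole fragments (100% within 0.01), and that constant equals the median over autosomal 1000-bp bins. The ends of the 7 chromosomes equal those of the Release 6 reference genome, from which genes and sequences were read.

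Fragments were recovered and summed within 500 bp of each start and over each gene body. Genes averaging at least 10 fragments were tested with limma 3.58.1 (R 4.3.3, mean-variance trend) on log2(signal + 0.1), with 1 fit per mark and Benjamini-Hochberg adjustment over all genes tested, so fold changes of low regions are understated. IP over input was called at an adjusted p under 0.05 and a fold over 1.5, and differences at an adjusted p under 0.05. The input fits had the mark of the preparation as a covariate. Alternatives were edgeR 4.0.16 and DESeq2 1.42.0 on the recovered fragments, TMM scaling, other pseudocounts, no filter, other windows, a GC correction, a replicate block and each replicate left out. The GC correction and the alternatives for H3K9me3 promoters were chosen after seeing the data. The scripts were tested on simulated data. Figures and tables used Python 3.11.15 with pandas 2.3.3, numpy 2.4.6 and matplotlib 3.10.9.

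Members and gene lists were chosen with earlier results of these data known. Named are the 8 genes, up to 4 called genes per comparison and direction of the other list, the nearest gene to each member, and neighbours starting within 1000 bp. Input was a portion of the chromatin used for IP, per the labels' protocols, and replicate numbers were taken to pair them; correlations of their deviations from the group means ran from -0.14 to 0.33. Fragments from PCR-amplified libraries are not independent molecules, so limits from counts cover counting error only.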

Additional observations from a re-analysis of the deposited data

Results flagged for a closer look

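In groups of 7 input libraries, the gap between an extreme library and its nearest neighbour was checked against the range of the group. A library stood apart in 5 of 32 groups. Chance gives about 1 in 20 where the libraries are independent draws from the same distribution. These groups mix the preparations of 3 marks and reuse the same libraries, so no excess over chance can be read from the count. At the trr promoter the input of the germline H3K27me3 replicate 1 was the highest at 1.163 (nearest 0.781), and that of the cyst H3K4me3 replicate 2 was the highest at 1.762 (nearest 1.194). At the ash1 promoter the germline H3K27me3 replicate 2 had 1.688, against 1.224 for the nearest library. Over the Set1 body the germline H3K27me3 replicate 2 had 1.946 and the cyst H3K27me3 replicate 1 had 2.131, each the highest of its group. At Kdm5 the H3K9me3 promoter effect differed between tumour types, by 1.03 germline minus cyst in a direct test of the difference (limma, adjusted p = 0.0376). The call is lost with the replicate block (adjusted p = 0.057), and 6 of 8 alternatives in all end it.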

How the results depend on the processing

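Counts below are of the 8 genes called. For H3K4me3 promoters in germline tumours the count of 5 became 1 with a pseudocount of 1 or over gene bodies, 3 with TMM scaling or the GC correction, 2 with DESeq2, and 1 to 5 when replicates were left out. In cyst tumours it was 3 over gene bodies. For H3K27me3 bodies in cyst tumours, 0 became 1 with TMM scaling, edgeR or DESeq2, and 0 to 1 with replicates left out. For H3K9me3 bodies, 0 became 1 (pseudocount 0.01) or 3 (promoters) in germline tumours, 5 (promoters) in cyst tumours, and 1 (edgeR, promoters) for the difference. For H3K9me3 promoters, 3 in germline tumours became 0 to 2 with replicates left out, and 5 in cyst tumours became 3 with edgeR or TMM scaling and 3 to 6 with replicates left out. The Kdm5 difference was lost (0 called) with the replicate block, the GC correction and TMM scaling, and 0 to 1 with replicates left out. For inputs, the body count of 1 became 2 (GC correction), 0 (flow cells with both tumour types) or 1 to 2, and the promoter count of 3 became 1 (TMM scaling, edgeR, DESeq2), 0 (flow cells) or 1 to 4 with replicates left out. Among values called in at least 1 of the settings compared, signs turned at Set1 for H3K4me3 in germline tumours with the GC correction (0.12), and for H3K9me3 where promoters replaced bodies, at ash1 (-0.70) and Kdm5 (-1.09) in cyst tumours and for the Kdm5 difference (1.03); signs of values called in neither setting also turned. The replicate block changed no other count of the 8 (5 and 6 for H3K4me3 promoters). With H3K9me3 promoters the block moved calls of a difference over all genes from 298 to 82. Causes were not tested. Among alternatives for single genes, 1451 kept their call and either kept direction or, where uncalled, turned sign by a move smaller than the SE. Of the rest, 72 lost a call, 29 gained one, 60 turned sign by more without a call, and 4 are the sign turns named above. Promoter windows of the 8 genes held a median of 19 IP fragments for H3K27me3 (0 to 296), against 53.5 for H3K4me3 and 54 for H3K9me3.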
